A study of Oryza sativa with 60 samples.

Results

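The miR1861 family of rice was followed through small RNA libraries of wild-type Kitaake anthers (genotype Kitaake_WT, a japonica cultivar) at 10 lengths from 0.4 to 2.5 mm, with 3 biological replicates at each length. Members were all entries of the mature miRNA count tables whose name is osa-miR1861 followed by a letter, which gave 7 of 582 entries. Plants were grown in a greenhouse, each sample pooled 20 to 30 anthers, and no group carried a mutation or a treatment. The lengths stand for stages of anther growth, during which pollen forms, and a whole anther holds somatic wall layers as well as the pollen line, so fewer cells of a type and less RNA per cell cannot be told apart.

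A plant miRNA is cut by a Dicer-like enzyme from a hairpin precursor and loaded into an Argonaute protein, which it guides to messenger RNAs of near-complete complementarity for cutting or translational repression. Several genes can give the same or nearly the same mature miRNA, and letters after the number mark these genes. The miR1861 family is catalogued in rice and does not belong to the families shared by all land plants. Its 7 entries join 15 letters: miR1861hjekm (h, j, e, k and m), miR1861bfil (b, f, i and l), miR1861ao (a and o), and miR1861c, miR1861d, miR1861g and miR1861n with 1 letter each. Genes joined in 1 entry were counted together, so their shares are not given.

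Each library has a length in its title and another in the name of its count table, and the pair differed in 30 of 30 libraries. Tables named 0.4, 0.6 and 0.8 mm had the titles 1.8, 2.0 and 2.5 mm, and tables named 1.0, 1.2, 1.4, 1.6, 1.8, 2.0 and 2.5 mm had the titles 0.4, 0.6, 0.8, 1.0, 1.2, 1.4 and 1.6 mm. For the first 3 the names held a bare digit, read here as the digit after the decimal point. Both give the same groups of 3 libraries, so the test over all sizes does not depend on the choice. The order of the groups does, and so do the pairs compared below, which were chosen as spans in the order of the names. Sizes below are those of the names, with the title beside them, and which is right is not settled by the sources used here.

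Levels are CPM, in which the count of an entry is divided by all miRNA counts of its library. These totals were 7527 to 584897, with a median of 227720.5. Under counting error alone, a count of 0 allowed 5.13 CPM in the deepest library and 399 CPM in the shallowest. The shallowest library, 0.8 mm replicate 1 (title 2.5 mm), held 2 reads of the family. In another library, 1.6 mm replicate 3 (title 1.0 mm), miR168a-5p alone took 65.8% of the counts. In 15 of the 30 libraries the group with the closest mean correlation was another than their own. Triggers of the phased small RNAs typical of grass anthers were present in all libraries, with 451 to 71106 CPM of miR2118 and 1383 to 115832 CPM of miR2275 summed over entries.

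The family was high in the longest anthers by name and low in the shortest. Summed over the 7 entries, its level averaged 187 ± 173 CPM at 0.4 mm (title 1.8 mm), 187 ± 111 at 0.6 mm (2.0 mm), 309 ± 135 at 0.8 mm (2.5 mm), 320 ± 166 at 1.0 mm (0.4 mm) and 543 ± 167 at 1.2 mm (0.6 mm; mean ± SD, n = 3 each). It averaged 1001 ± 345 CPM at 1.4 mm (title 0.8 mm), 3727 ± 2708 at 1.6 mm (1.0 mm), 3029 ± 3413 at 1.8 mm (1.2 mm), 3105 ± 4393 at 2.0 mm (1.4 mm) and 7066 ± 4592 at 2.5 mm (1.6 mm). In the order of the names the means increased up to 1.6 mm and were highest at 2.5 mm. The means of 1.8 and 2.0 mm rested on replicate 3, without which they were 1069 and 573 CPM, and the medians of 1.6, 1.8 and 2.0 mm were 4025, 1429 and 819 CPM. Without replicate 1 the mean of 1.6 mm was 2454 CPM, without replicate 3 that of 0.4 mm was 87.0 CPM, and without replicate 2 that of 0.6 mm was 125 CPM. In the order of the titles the mean was 320 CPM at 0.4 mm, increased up to 3727 CPM at 1.0 mm and was highest at 1.6 mm with 7066 CPM, and the titles 1.8, 2.0 and 2.5 mm then held the 3 lowest means. The largest ratio between groups, 2.5 over 0.4 mm by name, was therefore a difference between neighbouring lengths by title, 1.6 over 1.8 mm.

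**Figure D1:**
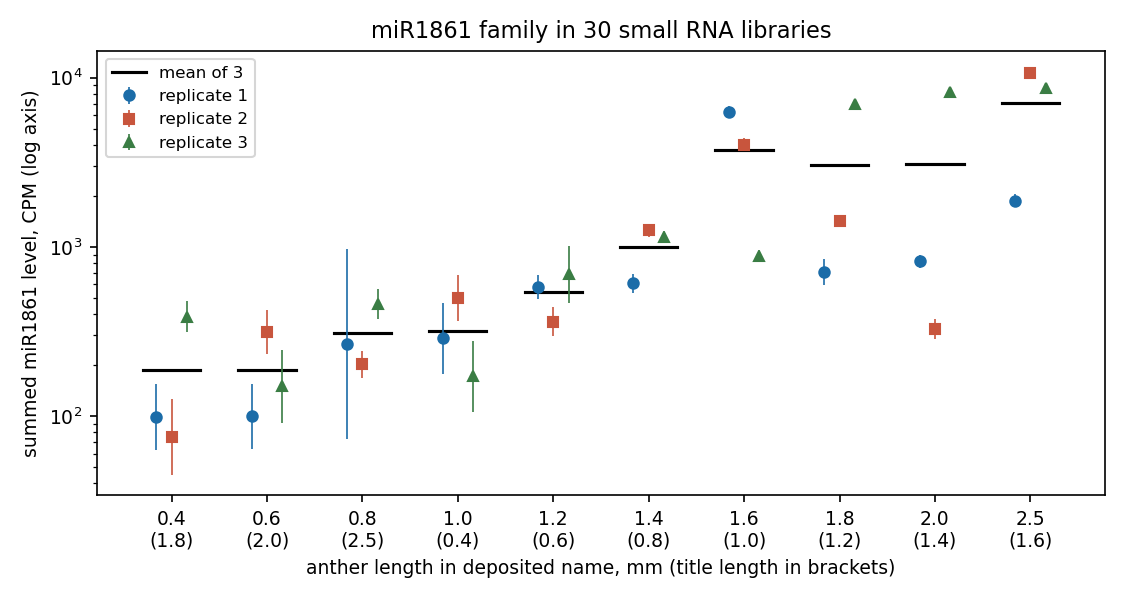
Summed level of the 7 miR1861 entries in each of 30 small RNA libraries (CPM, log axis) by the anther length in the deposited name, with the title length in brackets; bars through points are 95% Wilson intervals for counting error and black lines are means of 3 libraries. Libraries at 2.5 mm lie between 1878 and 10612 CPM and those at 0.4 mm between 75.1 and 386 CPM, and the highest of 3 libraries stands 5.65 and 5.14 times above the lowest at these sizes.

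Ranked by mean, the order of the sizes by name was 2.5, 1.6, 2.0, 1.8, 1.4, 1.2, 1.0, 0.8, 0.6 and 0.4 mm. Every neighbouring pair in that order had overlapping ranges. The difference of the means was larger than either SD only for 1.4 over 1.2 mm and 1.2 over 1.0 mm. The ratio of family means, 2.5 over 0.4 mm, was 37.8 on the CPM scale, 39.3 with TMM scaling, 36.1 without the 2 most abundant entries in the total, and 88.0 with medians. Scaled in the same way to all reads in the table, reads assigned to no miRNA included, the family averaged 99.2 CPM at 2.5 mm and 1.64 CPM at 0.4 mm, a ratio of 60.3.

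Nearly all reads of the family came from 1 entry. Of 19907 reads, miR1861hjekm held 90.3%, miR1861d 6.63%, miR1861bfil 1.72%, miR1861n 0.633%, miR1861g 0.362%, miR1861c 0.241% and miR1861ao 0.136%. The family as a whole was 0.241% of all miRNA counts. By mean level miR1861hjekm ranked 26 of 582 entries at 2.5 mm and 133 at 0.4 mm. At these sizes miR1861d ranked 68 and 477, and miR1861bfil 213 and 370.

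The leading entry, miR1861hjekm, was read in all 30 libraries. Replicates 1, 2 and 3 had 83.3, 75.1 and 340 CPM at 0.4 mm (title 1.8 mm), 57.6, 283 and 110 CPM at 0.6 mm (2.0 mm), and 266, 175 and 369 CPM at 0.8 mm (2.5 mm). They had 251, 355 and 140 CPM at 1.0 mm (title 0.4 mm), 492, 335 and 661 CPM at 1.2 mm (0.6 mm), and 530, 1143 and 1019 CPM at 1.4 mm (0.8 mm). Up to 1.2 mm no library passed 661 CPM, and neighbouring sizes overlapped. Replicates 1, 2 and 3 then had 5711, 3698 and 768 CPM at 1.6 mm (title 1.0 mm) and 644, 1271 and 6437 CPM at 1.8 mm (1.2 mm). They had 705, 244 and 7627 CPM at 2.0 mm (title 1.4 mm) and 1781, 9233 and 7935 CPM at 2.5 mm (1.6 mm). The highest of 3 libraries stood above the lowest by 4.53, 4.91, 2.54, 1.97 and 2.16 times at the lengths 0.4, 0.6, 1.0, 1.2 and 1.4 mm. The factor was 7.44, 9.99, 31.2 and 5.19 at the lengths 1.6, 1.8, 2.0 and 2.5 mm. Replicates thus differed widely at both ends of the series, and most at 2.0 mm. No factor is given for 0.8 mm, where 1 library held 2 reads.

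Entry miR1861d was second in mean level within the family from 1.2 mm on by name, and scarce in the shortest anthers. Of the 12 libraries of 1.6 to 2.5 mm, 6 had less miR1861d than miR1861bfil, so its late means were carried by the other 6. At 0.4 mm (title 1.8 mm) its 3 libraries held 1 read in all, and at 0.6 mm (2.0 mm) 3 reads. At 1.4 mm (title 0.8 mm) replicates 1, 2 and 3 had 42.4, 82.4 and 105 CPM, and at 1.6 mm (1.0 mm) 430, 252 and 17.5 CPM. At 1.8 mm (title 1.2 mm) they had 17.7, 20.3 and 432 CPM, at 2.0 mm (1.4 mm) 5.17, 3.42 and 408 CPM, and at 2.5 mm (1.6 mm) 24.4, 1224 and 594 CPM. From 1.6 mm on, the libraries high in miR1861d were those high in miR1861hjekm. They were replicates 1 and 2 at 1.6 mm, replicate 3 at 1.8 and 2.0 mm, and replicates 2 and 3 at 2.5 mm.

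The ratio of the pair moved as well. In these high libraries miR1861d stood at 5.35% to 13.3% of the miR1861hjekm level, and in the other libraries of 1.6 to 2.5 mm at 0.733% to 2.75%. At 1.4 mm, where the 3 libraries had 607 to 1250 CPM of the family, it stood at 8.00%, 7.20% and 10.3% in replicates 1, 2 and 3. The low libraries of the late sizes, with 327 to 1878 CPM of the family, thus held a lower share of miR1861d than the 1.4 mm libraries. Each of these low shares rests on 2 to 10 reads of miR1861d and carries a wide counting error. The split into high and low libraries was made from their miR1861 values, so no test was applied to it.

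Entry miR1861bfil spanned a narrower range, from 0 to 92.2 CPM. Replicates 1, 2 and 3 had 36.6, 91.2 and 92.2 CPM at 2.5 mm (title 1.6 mm), against 5.21, 0 and 13.8 CPM at 0.4 mm (1.8 mm), and these groups did not overlap. At 1.6 mm (title 1.0 mm) they had 61.4, 46.7 and 75.2 CPM, against 18.6, 12.1 and 19.1 CPM at 1.4 mm (0.8 mm). This was the only step between neighbouring sizes by name at which the ranges of miR1861bfil did not overlap, and miR1861hjekm, miR1861d and miR1861n had none. The tables of all 3 libraries of 1.6 mm named another reference set than those of 1.4 mm. Length and reference set therefore cannot be told apart at this step. The share of all entries without overlap was not computed for this step or for any other pair of sizes. A lack of overlap, here or below, therefore cannot be weighed against it. In replicate 3 of 1.6 mm, where miR1861hjekm and miR1861d were lowest of the 3, miR1861bfil was highest. Its highest library stood above its lowest by 3.33 times (1.8 mm), 3.01 times (2.0 mm) and 2.52 times (2.5 mm). As a share of family reads pooled over 3 libraries it was 1.02% at 2.5 mm (95% Wilson interval 0.830% to 1.25%), against 3.42% at 0.4 mm (1.34% to 8.46%). Single libraries held 0.859% to 1.95% at 2.5 mm and 0% to 5.26% at 0.4 mm and overlapped. Such intervals and floors take in counting error alone, because without molecular identifiers 2 reads can be copies of 1 molecule.

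Entry miR1861n had its highest levels elsewhere, with 72.4 CPM (42 reads) in replicate 1 of 2.0 mm (title 1.4 mm) and 58.5 CPM (23 reads) in replicate 2 of 1.8 mm (1.2 mm). These 2 libraries were low in miR1861d, with 5.17 and 20.3 CPM. In the other 28 libraries miR1861n had at most 27.5 CPM, and its level averaged 16.7 ± 12.5 CPM at 2.5 mm and 7.86 ± 9.47 CPM at 0.4 mm (SD, n = 3 each), with overlap.

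Of the 30 libraries, the 3 scarcest entries were read in 18 (miR1861g), 14 (miR1861ao) and 13 (miR1861c). Their highest counts in a library were 13, 5 and 16 reads. In the group of 2.5 mm the 3 libraries together held 24 reads of miR1861g, 23 of miR1861c and 10 of miR1861ao, against 1, 2 and 0 at 0.4 mm. The count of 0 for miR1861ao allowed up to 5.03 CPM over that group, against a mean of 8.24 ± 3.69 CPM at 2.5 mm (SD, n = 3).

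**Figure D2:**
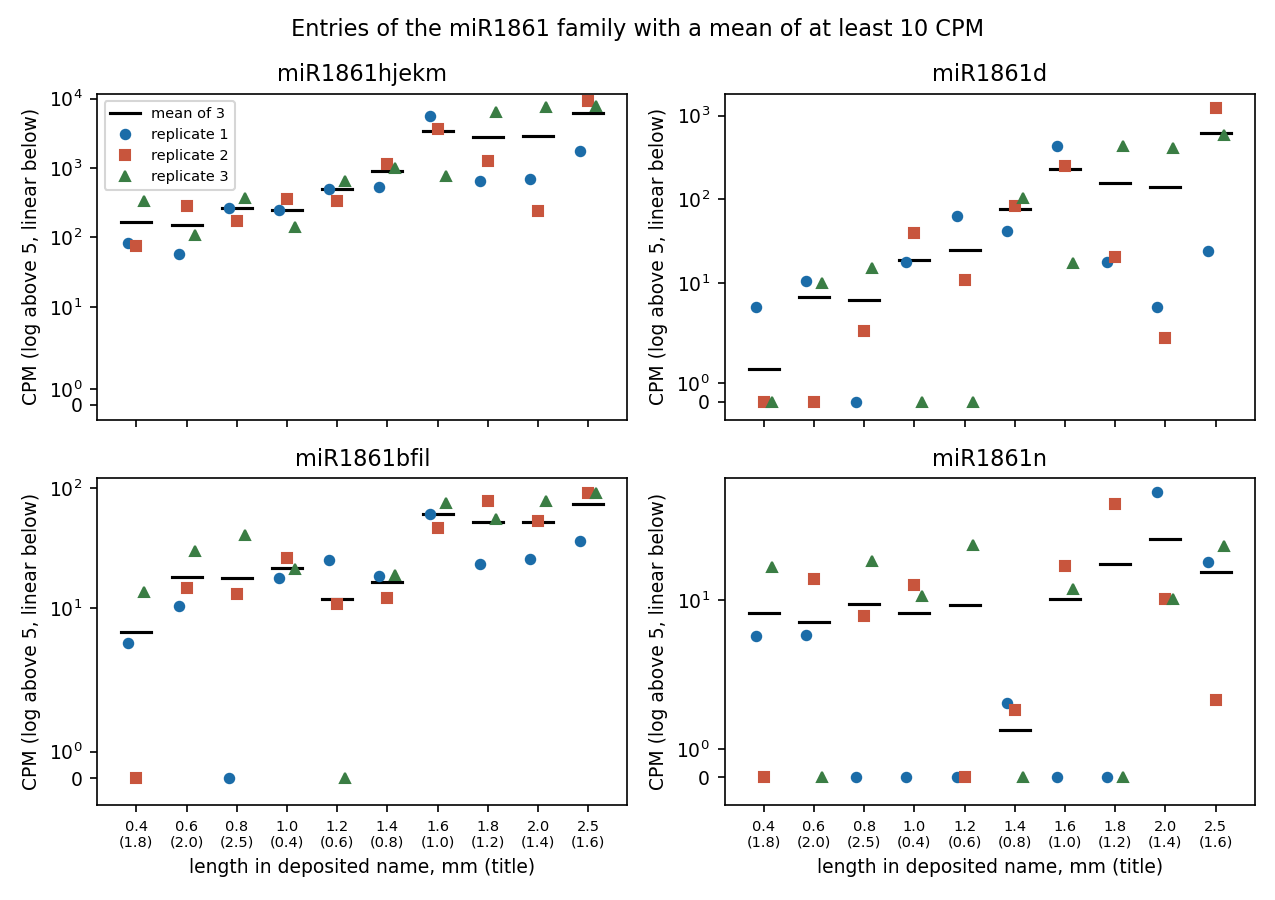
Levels of the 4 miR1861 entries with a mean of at least 10 CPM in each library (CPM, log axis above 5 and linear below) by the length in the deposited name, with the title length in brackets; symbols are replicates and black lines means of 3. Entries miR1861hjekm and miR1861d share their high libraries from 1.6 mm on, miR1861bfil keeps a narrower range, and miR1861n peaks in replicate 1 at 2.0 mm, with 72.4 CPM.

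The test over all 10 sizes asked which entries differ among the groups in any way. Of the 7 members, 3 passed the filter on low counts and were tested, and the filter favours entries that are high in at least 1 group. All 3 were called in edgeR's quasi-likelihood test, at a Benjamini-Hochberg adjusted p under 0.05, against 67.4% of the 371 entries tested, so that a call was common. The adjusted p was 1.63e-05 for miR1861hjekm, 0.000575 for miR1861d and 0.00704 for miR1861bfil. By p they ranked 50, 95 and 179 of the 371 entries.

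Between 2.5 and 0.4 mm by name (titles 1.6 and 1.8 mm), the whole span of the names, all 3 tested members rose. Calls here needed an adjusted p under 0.05 and a log2 fold change of at least 1 in either direction, and 49.6% of all tested entries were called, 29.9% as higher. Entry miR1861hjekm averaged 6316 ± 3981 CPM at 2.5 mm and 166 ± 151 CPM at 0.4 mm (SD, n = 3 each). Its groups did not overlap (share over all entries not computed). Its log2 fold change was 5.30 (SE 1.11, adjusted p = 0.000259 in edgeR). Entry miR1861bfil averaged 73.3 ± 31.8 and 6.33 ± 6.96 CPM at these sizes, a log2 fold change of 3.47 (SE 0.93, adjusted p = 0.00266 in edgeR), from 4 reads at 0.4 mm. Entry miR1861d averaged 614 ± 600 and 1.74 ± 3.01 CPM (adjusted p = 0.000795 in edgeR). With 1 read at 0.4 mm, its ratio of pooled counts was 400 with a 95% counting interval of 71.6 to 15836. The median log2 fold change was 5.30 over the 3 tested members and 0.85 over all tested entries. Of the 10 group means of miR1861d and of miR1861bfil, the highest was at 2.5 mm and the lowest at 0.4 mm. A filter that favours entries high in at least 1 group thus favoured a rise of these members in advance. The median over the 3 tested members, set beside 0.85, is therefore no test of a rise of the family. Members that failed the filter, which favours entries high in at least 1 group, are left out, so these medians do not describe the whole family. Of those, miR1861n, miR1861c and miR1861g had ratios of pooled counts of 2.11, 6.07 and 12.7, from 5, 2 and 1 reads at 0.4 mm. The 95% counting interval of miR1861n, 0.770 to 7.20, included 1, and those of miR1861c and miR1861g lay above 1. These intervals, and that of miR1861d, pool the libraries and leave out the spread between them, so they do not test a rise. Single libraries of miR1861c had 0 to 9.19 CPM at 0.4 mm and 4.07 to 30.7 CPM at 2.5 mm, which overlap. Those of miR1861g had 0 to 4.60 and 8.13 to 33.2 CPM. Entry miR1861ao had 0 reads at 0.4 mm and no ratio.

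In the early span, 1.0 over 0.4 mm by name (titles 0.4 and 1.8 mm), 0 of the 3 tested members were called in edgeR, where 12.4% of all tested entries were. At an unadjusted p under 0.05 the count was also 0, as it was by DESeq2 calls. Entry miR1861hjekm averaged 249 ± 108 CPM at 1.0 mm and 166 ± 151 CPM at 0.4 mm, with overlap (SD, n = 3 each). Entry miR1861bfil averaged 21.9 ± 4.20 and 6.33 ± 6.96 CPM without overlap (adjusted p = 0.363 in edgeR). Replicates 1, 2 and 3 held 1, 2 and 2 reads of it at 1.0 mm and 1, 0 and 3 at 0.4 mm. Its 3 values at 1.0 mm lay below the 32.2 CPM that a count of 0 allowed in the deepest of these libraries. The lack of overlap is therefore within counting error. The 3 libraries of 1.0 mm held 70 reads of the family in all, which limits what this span can show.

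In the middle span, 1.6 over 1.0 mm by name (titles 1.0 and 0.4 mm), miR1861hjekm rose, as 1 of the 3 tested members, against 4.04% of all tested entries called higher and 11.9% called in either direction. It averaged 3392 ± 2486 CPM at 1.6 mm and 249 ± 108 CPM at 1.0 mm (SD, n = 3 each), with no overlap and a log2 fold change of 3.52 (SE 1.03, adjusted p = 0.0212 in edgeR). Entry miR1861d averaged 233 ± 207 and 19.1 ± 19.8 CPM with overlap (adjusted p = 0.211 in edgeR). Entry miR1861bfil averaged 61.1 ± 14.2 and 21.9 ± 4.20 CPM without overlap (adjusted p = 0.258 in edgeR), from 5 reads at 1.0 mm. The share of all entries without overlap was not computed. At an unadjusted p under 0.05 in edgeR the count was 2, miR1861hjekm and miR1861d. The call of miR1861hjekm was lost without any of 5 of the 6 libraries compared, with a highest adjusted p of 0.0812 and log2 fold changes of 3.12 to 3.77 over the 6 omissions. The tables of all 3 libraries of 1.6 mm and of replicate 3 of 1.0 mm named another reference set than the other 26. With a model term for that set the log2 fold change was 4.66 (adjusted p = 0.149 in edgeR), and within the set miR1861hjekm had 768 to 5711 CPM in 3 libraries of 1.6 mm and 140 CPM in the 1 library of 1.0 mm.

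In the late span, 2.5 over 1.6 mm by name (titles 1.6 and 1.0 mm), 0 of the 3 tested members were called in edgeR and in DESeq2, 0 had an unadjusted p under 0.05, and 4.04% of all tested entries were called. Entry miR1861hjekm averaged 6316 ± 3981 CPM at 2.5 mm and 3392 ± 2486 CPM at 1.6 mm, and miR1861d 614 ± 600 and 233 ± 207 CPM (SD, n = 3 each), all with overlap. The direction for all 3 members was turned round by the term for the reference set, in which miR1861hjekm had a log2 fold change of -0.16 (SE 1.68). Each of the 3 turned changes was smaller than its SE.

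**Figure D3:**
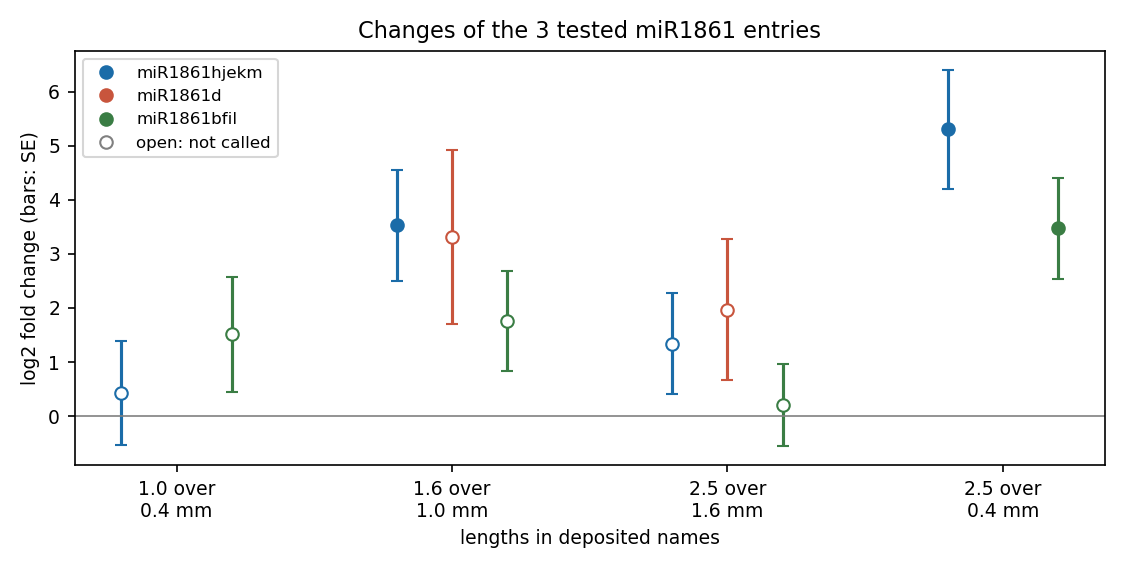
Log2 fold change with its SE for the 3 tested miR1861 entries in 4 comparisons of sizes by deposited name, filled where called and open where not; points with 3 or fewer reads in the group of the shorter length are left out. For miR1861hjekm the value is 5.30 for 2.5 over 0.4 mm and 3.52 for 1.6 over 1.0 mm, and the open points of the other spans were not called.

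The deposited names carry a further number, which the labels do not explain, and some of these numbers recur across sizes. For number 13, miR1861hjekm had 6437, 7627 and 7935 CPM at 1.8, 2.0 and 2.5 mm. For number 11 it had 1271, 244 and 1781 CPM at these sizes. For number 10 the lengths 1.0, 1.2, 1.4, 1.8 and 2.0 mm had 251, 492, 530, 644 and 705 CPM. Number 13 was thus high at all 3 late sizes, while number 10 reached at most 705 CPM over its 5 sizes. At 2.5 mm a library of number 12 had 9233 CPM. For number 14 the lengths 0.6, 0.8 and 1.0 mm had 57.6, 266 and 355 CPM, where the value of 0.8 mm rests on 2 reads. The libraries of number 3 had 140 CPM at 1.0 mm and 768 CPM at 1.6 mm, each the lowest of its size. In them miR168a-5p took 38.6% and 65.8% of the counts, and both named the other reference set, so number and these traits cannot be told apart. The miR2275 family, trigger of the longer class of phased small RNAs, had 92969 and 39347 CPM in number 13 at 1.8 and 2.0 mm, against 5085 and 1383 CPM in number 11 and 49314 and 3846 CPM in number 10. At 2.5 mm it had 32565 CPM in number 13 and 27810 CPM in number 11, a smaller gap than that of miR1861hjekm. Its part in the miR1861 levels was not tested, and this grouping was looked at after the values were seen.

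**Figure D4:**
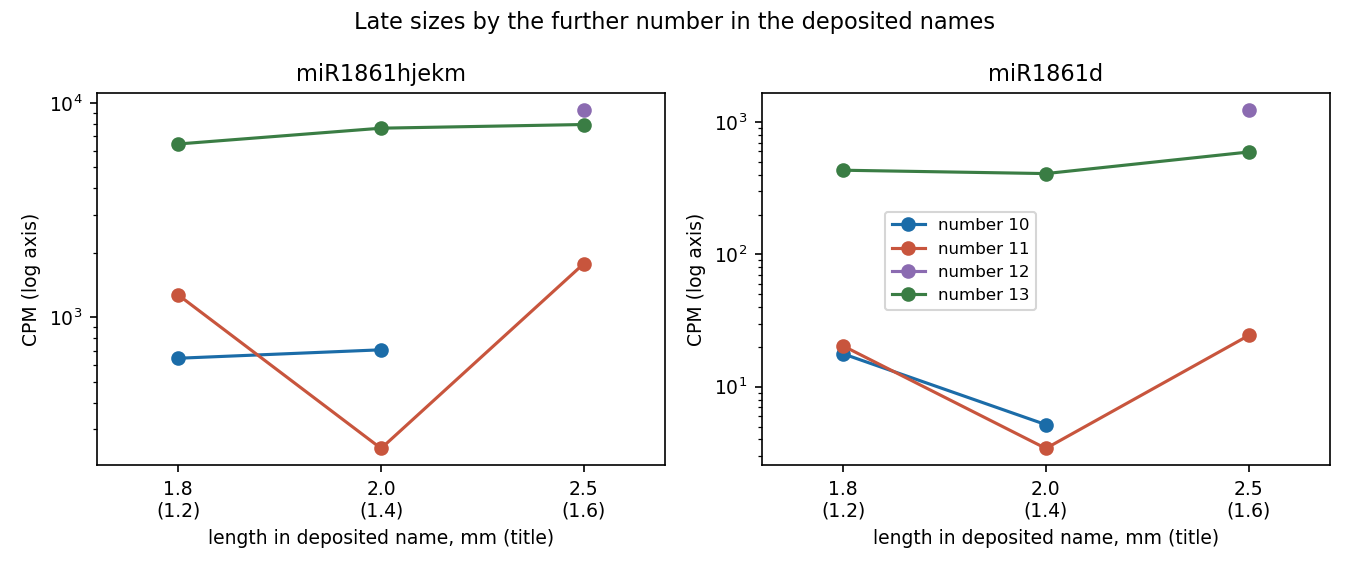
Levels of miR1861hjekm and miR1861d (CPM, log axis) in the 9 libraries of 1.8, 2.0 and 2.5 mm by name (titles in brackets), joined by the further number in the deposited names. Number 13 holds miR1861hjekm at 6437 to 7935 CPM over the 3 sizes and number 11 at 244 to 1781 CPM.

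Of 59 other rice entries with numbers near that of miR1861, 42 were tested. Over all sizes 22 of these were called, or 52.4%, against 67.4% of all tested entries. Between 2.5 and 0.4 mm by name, 12 were called higher and 2 lower, or 33.3%, against 49.6% of all tested entries. The median log2 fold change was 1.18, against 0.85 over all tested entries. For 1.0 over 0.4 mm the calls were 0 higher and 1 lower, or 2.38% against 12.4%. For 1.6 over 1.0 mm they were 2 higher and 0 lower, or 4.76% against 11.9% in either direction and 4.04% called higher. For 2.5 over 1.6 mm they were 1 higher and 0 lower, or 2.38% against 4.04%. In no comparison was the share called in either direction above that of all tested entries. For 1.6 over 1.0 mm the share called higher was above it, from 2 entries.

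The entries whose course over the 10 groups was most like that of the summed family were miR810b.1, miR1847.1, miR5149, miR810b.2 and miR1865-5p. Their Pearson's r with the family, on log2(mean CPM + 1) of the 10 groups, was 0.98, 0.98, 0.96, 0.94 and 0.94, and over the 30 single libraries 0.85, 0.67, 0.76, 0.78 and 0.65. Entry miR810b.1 had 27927 CPM at 2.5 mm and 103 CPM at 0.4 mm by name, while miR1847.1 had 136 and 11.4 CPM. The most opposite courses were those of miR5837.2, miR5800 and miR5514, with r of -0.99 for each over the groups and -0.82, -0.77 and -0.63 over the libraries. Entry miR5837.2 had 3.84 CPM at 2.5 mm and 1294 CPM at 0.4 mm. These values describe the libraries, which share their totals with the family, and are given without a test. The likeness to miR810b.1 did not hold in every library: at 2.0 mm replicate 1 had 33997 CPM of miR810b.1 and replicate 3 had 27301 CPM, where miR1861hjekm had 705 and 7627 CPM.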

How the data were processed

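Small RNA libraries of anthers were sequenced, and the authors deposited unscaled counts of reads for each mature miRNA entry in 2 tables per library, whose counts were equal in 30 of 30 libraries. Bowtie2 2.5.2 and cutadapt 3.0 are named in the submitters' processing notes. Settings and build are not given in the sources used here. Reads assigned to no miRNA were listed for 26 libraries, were 97.5% to 99.3% of the reads there, and stayed out of totals and tests. The 30 mRNA tables were not used here. Depth is given in the report, and replicate libraries differed by more than sampling noise (chi-square per degree of freedom of at least 4.02 in 30 pairs).

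Groups came from the titles. All 582 entries of 30 libraries were fitted together in edgeR 4.0.16 (R 4.3.3; filterByExpr, TMM, glmQLFit, glmQLFTest) with the 10 sizes as 1 factor, which kept 371 entries and 99.8% of the counts. SE were derived from F. The fitting code was tested on simulated data. Entries with a mean of at least 10 CPM were described in full, and the 5 most alike and 3 most opposite entries were named. Members, lists and comparisons were chosen with earlier results of these data known. Alternatives were DESeq2 1.42.0, other scalings, no filter, the replicate number as a block, a reference-set term, fewer libraries and each library left out. For 1.6 over 1.0 mm the same-numbered libraries deviated together (r = 0.14, 0.54 and 0.57), as a hint from the data and not from the labels, and the block changed no call there. Over all same-numbered pairs of libraries from different groups r ran from -0.62 to 0.79.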

Additional observations from a re-analysis of the deposited data

How the results depend on the processing

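For the counts of called members, 90 recomputed values equalled the reported one or stayed within 1.5 times of it, and 8 were lower. For 1.6 over 1.0 mm by name the count was 0 in place of 1 with the reference-set term and in the fit on the 6 libraries compared alone, and 0 to 1 when 1 library was left out. For 2.5 over 0.4 mm by name it was 1 in place of 3 in the fit on the 6 libraries alone, where miR1861d and miR1861bfil did not pass the filter on low counts and were not tested. Leaving out 1 library at a time gave 3 over all sizes, 3 for 2.5 over 0.4 mm and 0 for the early and late spans. Without both doubted libraries, an alternative added after seeing the data, the counts were 3, 0, 1, 0 and 3 (over all sizes, then the early, middle, late and whole span). With the replicate block they were also 3, 0, 1, 0 and 3. In the early, late and whole spans the correlations of same-numbered libraries were between -0.18 and 0.26. Over all same-numbered pairs of libraries from different groups they ran from -0.62 to 0.79, with a median of 0.024.

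Signs turned only for 2.5 over 1.6 mm. With the reference-set term the log2 fold changes there were -0.16 for miR1861hjekm (SE 1.68), -4.02 for miR1861d (SE 5.42) and -0.23 for miR1861bfil (SE 1.67). Only the group of 1.0 mm held both reference sets, so the term was estimated from it. Its 1 library of the other set held 0 reads of miR1861d and 2 of miR1861bfil, so these signs decide nothing. For miR1861bfil, reported as 0.20, the log2 fold changes were -0.088 in DESeq2, -0.073 with DESeq2 size factors in edgeR and -0.17 in the fit on the 6 libraries. They were -0.42 to 0.84 when 1 library was left out (-0.32, -0.30, -0.42 and -0.031 where negative). The cause was not tested. For 2.5 over 0.4 mm, leaving out 1 library gave 4.44 to 6.53 for miR1861hjekm and 2.74 to 4.74 for miR1861bfil.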
